A study of Mus musculus with 18 samples.

Results

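Channel genes were followed through RNA sequencing of 18 mouse libraries from a study of peroxisomal ether lipids in the developing cortex. They were chosen by symbol, as genes named for voltage-gated sodium channels (Scn), calcium channels (Cacna, Cacnb, Cacng), hyperpolarisation-activated channels (Hcn) and potassium channels (Kcn), and as reaching 1 RPKM (reads scaled to exon length and to the library's read total) in at least 1 library. Of 32941 genes, 141 matched by name and 107 of these reached that level, while 34 stayed under it in all libraries. Just inside the threshold lay Kcnab1, with a highest value of 1.03 RPKM, and Kcnj13, with 1.05 RPKM, and just outside it lay Kcnj6 at 0.977 and Kcnh6 at 0.970 RPKM. The name is wider than the property: the 10 inward rectifiers (Kcnj) and 8 leak channels (Kcnk) among the 107 have no voltage sensor, the small-conductance channels of the Kcnn group are opened by calcium, many others are auxiliary subunits, and 4 are antisense or host transcripts. The text therefore calls them channel genes.

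The 12 perturbation libraries came as pairs. Primary neural stem cells carried a short hairpin RNA against Pex7 (Pex7sh, 2 libraries, genotype given as PEX7-knockdown) or a scrambled one (Scramble, 2 libraries, genotype WT). Brain with PLAAT3-PEX11 overexpression was compared with WT brain in a first set (PLA1 and Ctrl1, 2 libraries each) and in a neuron set (Neuron-PLA and Neuron-ctrl, 2 each). The remaining 6 libraries were WT brain at embryonic days 11, 12, 13, 14, 16 and 18 (E11 to E18), 1 library a stage, although the design text speaks of cortex in triplicate. The labels give no age, promoter, vector or sorting step for the overexpression sets, and no label ties the libraries of a pair to different animals or cultures. For the 12 perturbation libraries the spread behind each p-value is therefore that between libraries and may be technical only. For the 6 stage libraries it is their departure from a straight line over days. A gene that rose and then fell over the stages may therefore not pass.

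Voltage-gated channels are pore-forming proteins whose voltage sensors open them when the membrane potential changes. Sodium channels carry the upstroke of the action potential, potassium channels end it and set the resting potential, calcium channels couple it to transmitter release and gene expression, and auxiliary subunits set how many channels reach the surface and how they gate. In the embryonic cortex radial glial progenitors rest on leak and inward rectifier potassium channels, and newborn neurons acquire sodium, calcium and delayed rectifier currents as they mature.

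Recovered read totals ranged from 16147911 to 28104927 for perturbations and from 41501880 to 54373317 for stages. Pex7 stood at 0.500 and 0.669 RPKM in the Pex7sh libraries, against 1.19 and 1.22 RPKM in the Scramble libraries, and Plaat3 at 31.4 and 29.1 RPKM in PLA1, against 0.413 and 0.431 RPKM in Ctrl1, and at 19.0 and 20.8 RPKM in Neuron-PLA, against 0.0699 and 0.230 RPKM in Neuron-ctrl. Summed over 17 pan-neuronal markers, the neural stem cell libraries held 1485 to 1990 RPKM, against 1487 RPKM in E11 brain and 4612 RPKM in E18 brain, and summed over 18 radial glia markers 1048 to 1497 RPKM, so transcripts of both kinds of cell were present in libraries labelled neural stem cell. The 4 tables were normalised separately, and levels are compared within a table unless said otherwise. All values are from bulk RNA, in which fewer cells of a type and less RNA per cell cannot be told apart.

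Most channel genes stood higher at later stages. The test was the slope of log2(RPKM + 1) on embryonic day, fitted with limma over all 12921 genes whose mean reached 1 RPKM. Of the 107 channel genes, 77 passed that filter on low values. Of these, 58 rose and 2 fell at a Benjamini-Hochberg adjusted p under 0.05, while over all genes tested 19.6% rose and 25.5% fell (45.1% in either direction). The median slope was 0.21 per day over the channel genes and -0.02 per day over all genes. Without the filter, 137 of the 141 named genes were tested and 73 rose and 3 fell, against 13.1% and 13.1% of all genes. With 1 library a stage, the slope rests on the order of the stages. Without the E18 library 34 of 68 channel genes tested rose and 2 fell, against 1270 and 1267 of 12779 genes. Of the 60 that passed, 16 lost their call without E18, among them Cacng2, Cacng4, Cacnb1, Scn8a, Kcnf1 and Kcnj8. Another 9 were under the filter without E18, namely Cacna1i, Kcnc4, Kcnj4, Kcnk3, Kcnk12, Kcnma1, Kcnq5, Kcnu1 and Kcnv1. Their calls could not be tested without that library. Scn8a, Kcnf1 and Kcnj10 lost theirs without E11. Pan-neuronal markers moved along, with 13 of 17 rising, and 12 of 18 radial glia markers fell. Summed erythroid markers stood at 7022 RPKM at E11 and 253 RPKM at E18. The part of these cell mixtures in the channel slopes was not tested.

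Among the 91 channel genes that reached 1 RPKM in a stage library, 67 had their highest value at E18, as did 28.9% of all genes at that level. The highest value fell at E16 in 11, at E14 in 6, at E13 in 2, at E12 in 2 and at E11 in 3. The level at E18 was 4.85 times that at E11 in the median channel gene. In the 67 that were highest at E18, a median of 53.5% of the gain over E11 came after E16, and in 34 of them it was over 50%.

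**Figure D1:**
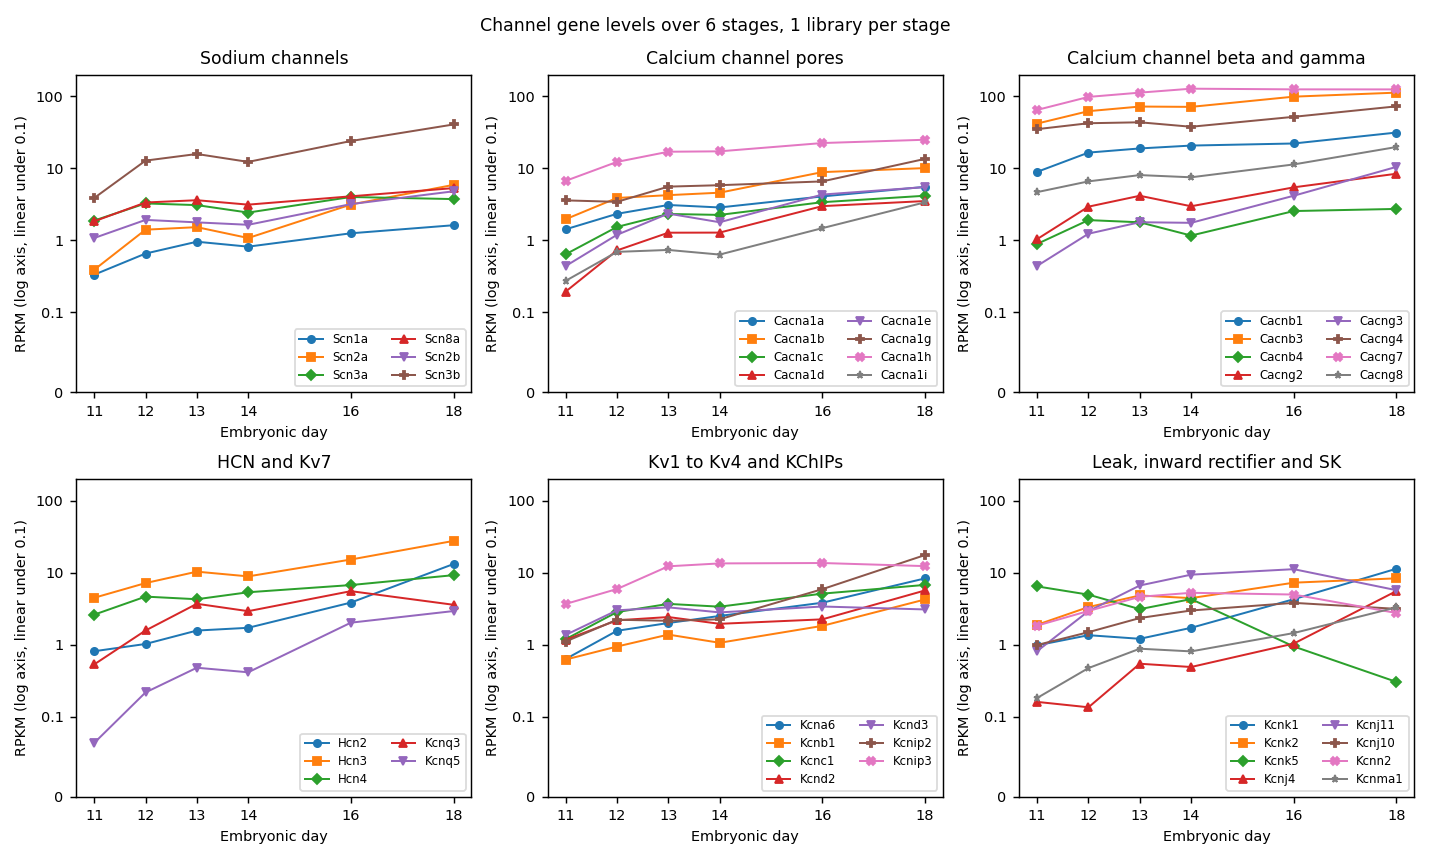
RPKM (log axis, linear under 0.1) against embryonic day for 42 channel genes in 6 groups, 1 library per point. Most lines climb to E18, steeply after E16 for Hcn2 (3.82 to 13.1 RPKM) and Kcnip2 (5.87 to 17.5 RPKM), while Kcnk5 falls to 0.303 RPKM at E18.

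Of the 4 sodium channel pores tested, 2 rose and 1 fell. Scn2a, which encodes the pore of early axons, stood at 0.389, 1.4, 1.52, 1.07, 3.13 and 5.87 RPKM from E11 to E18 and rose by 0.29 per day (SE 0.04, adjusted p = 0.00235). Scn2a made up 4.82% of the summed sodium pore RPKM at E11 and 33.3% at E18. Scn8a, the pore of the mature initial segment and node, rose (0.13), and Scn3a, the pore typical of the fetal brain, stood between 1.88 and 3.98 RPKM with a slope that did not pass (0.08, adjusted p = 0.0935). The sensory neuron pore Scn11a was at 1.28 RPKM at E11 and 0.0806 RPKM at E18, with a mean under the filter. All 3 beta subunits, which set gating and adhesion of the pore, rose. Scn3b led by level, at 3.86, 12.8, 15.8, 12.2, 23.9 and 40.5 RPKM, with a slope of 0.36, and Scn2b was at 1.07 RPKM at E11 and 4.78 RPKM at E18 (0.19), a call lost without E18.

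Of the 9 calcium channel pores tested, 8 rose. By level the T-type pore Cacna1h led, with 6.68, 12.2, 16.9, 17.2, 22.4 and 24.9 RPKM (slope 0.22), followed by Cacna1g, also T-type, and by the N-type pore Cacna1b, each rising by 0.23 and 0.26 per day. The L-type pore Cacna1d was at 0.194 RPKM at E11 and 3.50 RPKM at E18 (0.27), and the R-type pore Cacna1e at 0.438 RPKM at E11 and 5.47 RPKM at E18 (0.29). Cacna1a (0.18), Cacna1c (0.21) and the third T-type pore Cacna1i (0.23) rose as well. Of the alpha2delta subunits, which carry pores to the surface, Cacna2d3 rose (0.21), a call lost without E18, while Cacna2d1 (slope 0.03) and Cacna2d2 (0.08) did not pass. Cacnb3, a cytoplasmic beta subunit that stabilises the pore, was at 41.7 RPKM at E11 and 112 RPKM at E18 and rose (0.18), as did Cacnb1 (0.19).

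The highest level of any channel gene in the stages belonged to a gamma subunit, Cacng7. Most brain members of this group guide AMPA-type glutamate receptors rather than calcium channels. Cacng7 stood at 64.5, 97.8, 112, 127, 124 and 124 RPKM, reaching its highest value by E14, and its slope did not pass (0.11, adjusted p = 0.0612). Cacng4 was at 34.9 RPKM at E11 and 72.3 RPKM at E18 and rose (0.13). Cacng3 went through 0.440, 1.23, 1.78, 1.74, 4.15 and 10.4 RPKM, the steepest slope of its group (0.39, SE 0.04, adjusted p = 0.000653). Cacng2, Cacng5 and Cacng8 rose by 0.26, 0.22 and 0.24 per day.

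The hyperpolarisation-activated channels, which carry the pacemaker current, showed an order by level. Hcn3 stood highest at all stages, with 4.46 RPKM at E11 and 27.5 RPKM at E18 (slope 0.31), and Hcn4 second from E11 to E16. Hcn2 was at 0.807, 1.02, 1.56, 1.71, 3.82 and 13.1 RPKM (0.41) and stood above Hcn4, which was at 9.19 RPKM, at E18 only. The 3 tested, Hcn2, Hcn3 and Hcn4, all rose.

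Among potassium channels, the 4 Kv7 genes, which form the M current that restrains repeated firing, all rose. Kcnq3 was highest at E16, with 5.51 RPKM, and at 3.56 RPKM at E18, and lost its call in 6 of 13 alternatives, among them without E11, E12, E14 or E16. Of 8 Kv1 to Kv4 pores tested, 7 rose, among them Kcna6 (0.32) and Kcnc4 (0.29), and Kcnd3, an A-type pore at 1.36 to 3.37 RPKM, did not pass (0.08). The KChIP subunit Kcnip2, which raises the surface level of A-type pores, was at 1.1, 2.21, 2.13, 2.24, 5.87 and 17.5 RPKM (slope 0.42), and its relative Kcnip3 reached 12.2 RPKM by E13 and was at 12.3 RPKM at E18 (0.20, adjusted p = 0.0497), a call lost in 8 of 13 alternatives, among them without E11, E12, E14 or E16. The modifier subunits, silent on their own, gave Kcnv1 (0.22) and Kcnf1 (0.16) as rising, and Kcng1, highest at E14 with 10.2 RPKM, as not passing. Of the 4 ether-a-go-go genes tested only Kcnh3 rose (0.36). Kcnh2, the pore of the cardiac rapid delayed rectifier, held 3.69 to 5.82 RPKM at all stages (slope 0.04, adjusted p = 0.336), and Kcnh4 stood at 2.36 to 12.8 RPKM without passing.

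The large-conductance calcium-activated pore Kcnma1 was at 0.181 RPKM at E11 and 3.28 RPKM at E18 and rose (slope 0.24), as did its neuronal beta subunit Kcnmb4, at 4.15 RPKM at E11 and 14.9 RPKM at E18 (0.24). The small-conductance channels Kcnn1 (slope -0.07), Kcnn2 (0.05) and Kcnn3 (0.07) did not pass: Kcnn1 was highest at E12 with 10.1 RPKM, and Kcnn2 and Kcnn3 were highest at E14. Antisense transcripts of the Kcnmb4 locus, Kcnmb4os1 (8.62 RPKM at E11, 33.5 RPKM at E18) and Kcnmb4os2 (4.07 RPKM at E11, 13.5 RPKM at E18), rose by 0.27 and 0.23. They share 43.1% and 34.2% of their exon bases with Kcnmb4, and whether strand was used in counting is not given in the sources used here, so reads of the 3 genes cannot be told apart where they overlap. The same limit holds for other channel genes. Antisense genes share 49.1% of the exon bases of Kcnj13, 31.1% of Kcnj3 and 17.1% of Hcn3, among others.

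Among the leak channels, Kcnk5 went the other way. It encodes an acid-sensitive leak channel best known from epithelia and stood at 6.42, 4.93, 3.10, 4.27, 0.939 and 0.303 RPKM from E11 to E18. The first 4 stages lay above 3 RPKM and the last 2 under 1 RPKM, and the slope was -0.36 per day (SE 0.04, adjusted p = 0.0011), so Kcnk5 fell. In contrast Kcnk1 rose (0.974 RPKM at E11, 11.3 RPKM at E18, slope 0.37), as did Kcnk3 (0.26), Kcnk12 (0.18) and the mechanosensitive Kcnk2 (0.22), and Kcnk10 stood at 4.18 to 6.06 RPKM at all stages (0.05, adjusted p = 0.141). Of 6 inward rectifiers tested, 5 rose, among them Kcnj4 (0.33), the G-protein-gated Kcnj3 (0.24), the glial Kcnj10 (0.16) and the pericyte marker Kcnj8 (0.14). The ATP-sensitive pore Kcnj11 stood at 0.810, 2.91, 6.61, 9.34, 11.1 and 5.68 RPKM, highest at E16, and did not pass (0.26, adjusted p = 0.0949).

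**Figure D2:**
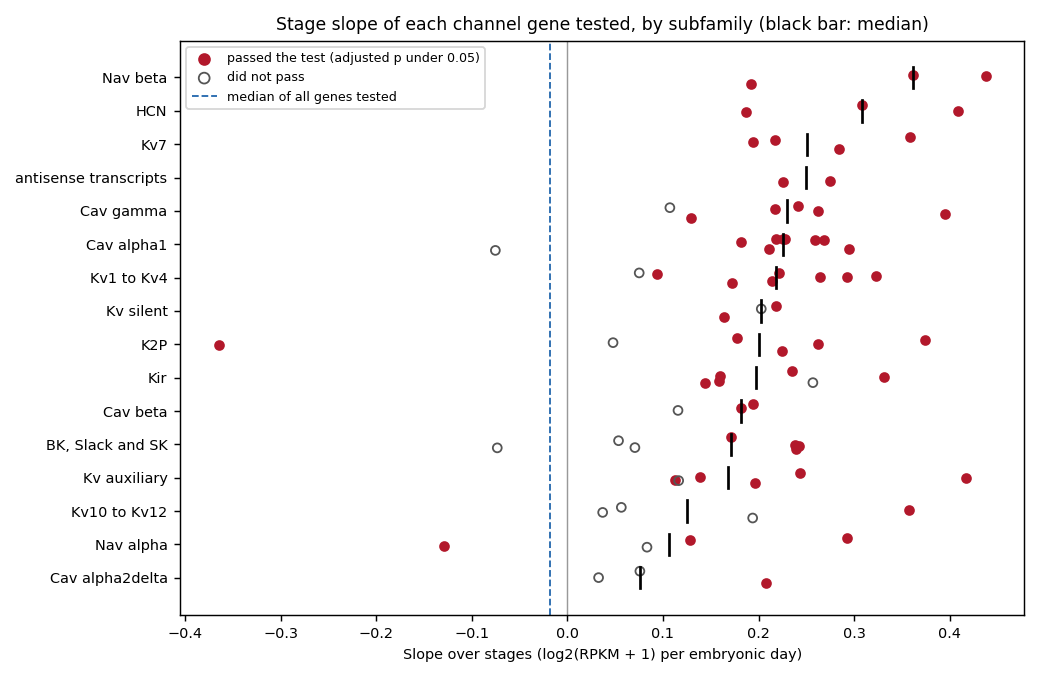
Slope of log2(RPKM + 1) per embryonic day for the 77 channel genes tested, by subfamily, with filled points for those that passed, a black bar at each subfamily's median and a dashed line at the median of all genes tested (-0.02). All subfamily medians lie above the dashed line, from 0.08 for the alpha2delta subunits to 0.36 for the sodium channel beta subunits, and 2 filled points lie left of 0, with Kcnk5 the farther of them.

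Kcna6 and Kcnk5 passed the test both over the stages and in the first overexpression set, in opposite directions, and each has a single start site window in RefSeq. The 250 bases before those start sites (RefSeq, GRCm38.p6, minus strand, chr6:126740675-126740924 and chr14:20181783-20182032) are shown with GC boxes (GGGCGG, either strand) in capitals.
Kcna6: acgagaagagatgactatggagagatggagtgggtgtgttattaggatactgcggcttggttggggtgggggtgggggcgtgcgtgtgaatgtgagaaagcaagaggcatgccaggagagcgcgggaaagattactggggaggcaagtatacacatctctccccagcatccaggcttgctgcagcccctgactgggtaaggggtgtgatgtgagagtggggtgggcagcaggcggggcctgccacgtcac
Kcnk5: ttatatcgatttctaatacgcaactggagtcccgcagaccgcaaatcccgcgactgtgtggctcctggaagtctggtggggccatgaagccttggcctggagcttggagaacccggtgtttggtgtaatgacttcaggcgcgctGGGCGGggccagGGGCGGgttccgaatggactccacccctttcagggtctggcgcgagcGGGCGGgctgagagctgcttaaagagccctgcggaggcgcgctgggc
Kcnk5 held 3 GC boxes, at positions -106, -94 and -47 from the start site, and 19 CpG dinucleotides, and Kcna6 held no GC box and 8 CpG dinucleotides. Of the 107 channel genes, 76 matched a window by symbol, and 49 of these (64.5%) held a GC box, against 35.4% of all 27025 genes with a window. A gene with several windows was counted if any of them held the letters. The channel genes had reached 1 RPKM in a library, while all genes with a window were counted whatever their level. These percentages therefore do not separate channel genes from expressed genes in general. The median GC content of the first window of each gene was 61.8% in channel genes and 52% in all genes. The TATA box letters TATAAA stood in 5 channel genes (6.58%, against 14.3% of all genes), among them Scn2a and Cacna1d, and the E-box CACGTG in 3 (3.95%, against 6.86%). The cAMP response element TGACGTCA was in 0 of 76, against 1.77% of all genes. The left part of the element bound by the repressor REST, TTCAGCACC, was in 0 of 76, against 0.348% of all genes. Letters in a window are a description, and their absence says only that they are not in these 250 bases.

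Genes that work with channels were described from lists. Of 22 tested genes for channel partners and placement, 15 rose over the stages, led by Rimbp2 (0.39), Sptbn4 (0.45), which anchors sodium channels at the initial segment, Cntn1 (0.37) and Lgi1 (0.23), and 1 fell, Cntnap2 (-0.22). Of 8 repressors of neuronal genes 0 rose and 6 fell, among them Rest (-0.19), whose protein binds neuronal channel gene promoters in non-neuronal cells, Hdac1 (-0.25), Sin3a (-0.17) and Rcor1 (-0.10). Of 6 sodium pump subunits 4 rose, among them Atp1b2 (0.38) and Atp1b1 (0.44), and Atp1b3 fell (-0.12). Of 15 other excitability genes tested, 4 rose, namely Itpr1 (0.17), Ryr3 (0.20), Orai2 (0.24) and Clcn4 (0.13), and 2 fell, Ano1 (-0.27) and Trpm7 (-0.11).

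In neural stem cells with Pex7 knockdown no channel gene passed the test. The targeted gene Pex7 lay under the filter and did not pass without it (log2 change -0.48, limma adjusted p = 0.9995). A lack of calls in this comparison therefore does not show that channel genes were unchanged. Of 92 channel genes tested 0 passed, as did 0 (0%) of 12482 genes, and 1 channel gene had an unadjusted p under 0.05, as did 184 genes (1.47%). Limma-voom on recovered reads also called 0 channel genes and 0 of all genes. The median log2 change was -0.01. The smallest unadjusted p belonged to the antisense transcript Kcnmb4os2, with 1.59 and 1.98 RPKM in Pex7sh, against 2.52 and 2.50 RPKM in Scramble (log2 change -0.34, SE 0.13, limma adjusted p = 1.00). Next came Kcnc4 (3.30 and 3.39 RPKM in Pex7sh, against 4.31 and 3.72 RPKM in Scramble, log2 change -0.20) and Kcng1 (2.43 and 2.77 RPKM in Pex7sh, against 2.96 and 3.29 RPKM in Scramble, log2 change -0.20). Both Pex7sh libraries lay above both Scramble libraries in 1 of 92 channel genes, against 10.6% of all genes, and below both in 6, against 11.9%.

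The 2 Scramble libraries differed from each other more than the 2 Pex7sh libraries did, over all genes (SD of the log2 difference 0.183 in the Pex7sh pair, 0.303 in the Scramble pair) as in channel genes. In 74 of 92 channel genes Scramble 1 was lower than Scramble 2, as in 50.6% of all genes, with a median log2 difference of -0.26 (SD 0.30), while the median over all genes was -0.003. Kcnk1, at 4.47 and 4.77 RPKM in Pex7sh and 2.75 and 5.36 RPKM in Scramble, was an example. The Pex7sh pair differed by a median of -0.02 (SD 0.13), and in 60 of 92 channel genes both Pex7sh values lay between the Scramble values, as they did in 43.3% of all genes. Scramble 1 also held less of each of the 17 pan-neuronal markers (median difference -0.43), and summed oligodendrocyte lineage markers were at 338 to 341 RPKM in Pex7sh and at 233 and 447 RPKM in the Scramble pair. The median change of channel genes was -0.13 without Scramble 1 and 0.11 without Scramble 2, while over all genes it was -0.005 in both.

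**Figure D3:**
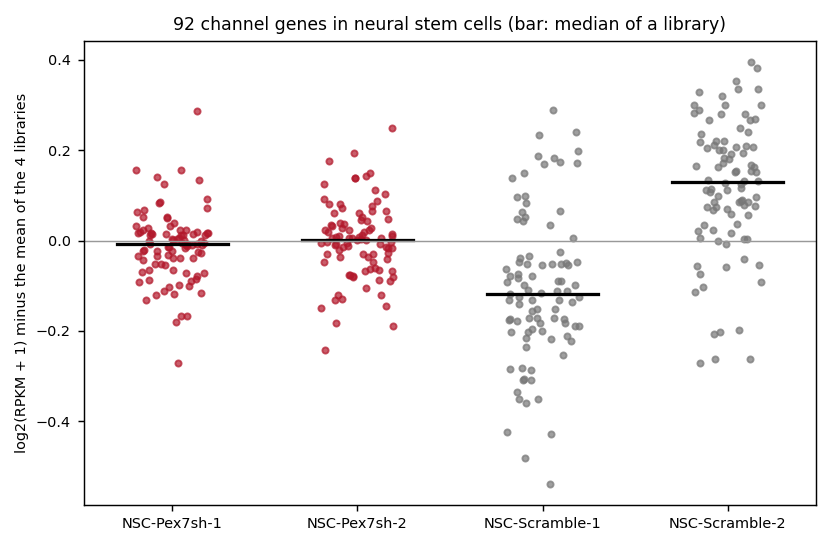
For 92 channel genes, log2(RPKM + 1) in each neural stem cell library minus the mean of the 4 libraries, with a bar at each library's median. The medians are -0.01 and 0.00 in the Pex7sh libraries, near each other, and -0.12 and 0.13 in Scramble 1 and Scramble 2, on opposite sides.

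Kv pores were among the most abundant channel genes in these cells. Kcnc1, a fast delayed rectifier, was at 30.8 and 31.1 RPKM in Pex7sh and 37.2 and 27.0 RPKM in Scramble, Kcna3 at 15.6 and 13.3 RPKM in Pex7sh and 17.7 and 14.8 RPKM in Scramble, and Kcnd3 at 14.9 and 14.4 RPKM in Pex7sh and 17.1 and 14.1 RPKM in Scramble. In each of these, Scramble 1 was the highest of the 4 libraries, the opposite of most channel genes. Across separately normalised tables, Kcna3 did not exceed 0.355 RPKM in any stage library and Kcnc1 did not exceed 6.73 RPKM. The T-type pore Cacna1h (19.6 and 21.1 RPKM in Pex7sh, 20.7 and 21.0 RPKM in Scramble) and the N-type pore Cacna1b (20.9 and 20.5 RPKM in Pex7sh, 19.6 and 24.2 RPKM in Scramble) led the calcium pores. Scn3a led the sodium pores, at 9.15 and 9.49 RPKM in Pex7sh and 7.65 and 9.92 RPKM in Scramble. The pericyte marker Kcnj8 was listed at 0 in all 4 libraries. None of 24 channel partners, 8 repressors, 6 sodium pump subunits or 16 other excitability genes passed after Pex7 knockdown.

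In the first overexpression set, 9 channel genes fell with PLAAT3-PEX11 and 3 rose. The test compared PLA1 with Ctrl1 by limma over 11623 genes, of which 16.3% rose and 13.2% fell (29.6% in all), and 46 channel genes passed the filter. The median log2 change was -0.28 over these and 0.06 over all genes. Both PLA1 libraries lay below both Ctrl1 libraries in 25 of the 46, against 29.7% of all genes, and above both in 6, against 39.6%. Without the filter on low values 130 of the 141 named genes were tested, and 1 rose and 2 fell, against 2.8% and 2.57% of all genes. The count of 12 was 6 without Ctrl1 library 1, and 8 without Ctrl1 library 2 or without PLA1 library 2. With median-ratio or upper-quartile scaling 2 rose and 11 fell, and with a trend on exon length and GC content removed 2 rose and 13 fell. Over all genes, rises and falls were 1558 and 1796 with median-ratio scaling, 1652 and 1714 with upper-quartile scaling, and 1579 and 1739 with the trend removed.

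Of the 9 that fell, 7 were potassium channel genes, which were 29 of the 46 tested. The modifier Kcnv1 fell to 4.54 and 2.60 RPKM in PLA1, against 8.34 and 7.86 RPKM in Ctrl1 (log2 change -1.03, limma adjusted p = 0.011). Its groups did not overlap, and its call was lost without the filter. The modifier Kcng1 was at 6.84 and 6.11 RPKM in PLA1 and 10.3 and 9.48 RPKM in Ctrl1 (-0.54, adjusted p = 0.0162), a call lost without the filter, Ctrl1 library 1 or PLA1 library 2 (adjusted p up to 0.122).

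Kcna6, a Shaker-type pore, fell to 1.56 and 0.844 RPKM in PLA1, against 2.66 and 3.52 RPKM in Ctrl1 (-0.90, adjusted p = 0.0213), a call lost without the filter, Ctrl1 library 2 or PLA1 library 2 (adjusted p up to 0.124). Of its exon bases 39.6% are shared with an antisense gene. Both KChIP genes that passed fell. Kcnip3, whose protein also acts as a calcium-regulated repressor of transcription, had 18.6 and 18.7 RPKM in PLA1, against 27.8 and 27.9 RPKM in Ctrl1 (-0.55, SE 0.09, adjusted p = 0.0042). The libraries of each Kcnip3 group lay close together, with an SD of 0.0207 RPKM in PLA1 and 0.0649 RPKM in Ctrl1, and the call held in all 11 alternatives. Kcnip1 had 1.14 and 0.760 RPKM in PLA1, against 2.67 and 1.97 RPKM in Ctrl1 (-0.77, adjusted p = 0.0284), and lost its call without the filter, Ctrl1 library 1 or PLA1 library 2.

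Among sodium and calcium channel genes, the subunits Scn3b and Cacnb3 fell, Cacng5 rose and no pore passed. Scn3b was at 15.5 and 11.6 RPKM in PLA1 and 24.2 and 26.4 RPKM in Ctrl1 (-0.87, adjusted p = 0.00484), a call lost without the filter. Cacnb3 was at 9.65 and 14.5 RPKM in PLA1 and 19.97 and 18.4 RPKM in Ctrl1 (-0.65, adjusted p = 0.0286), a call lost without the filter, Ctrl1 library 1 or PLA1 library 1. Scn2a had 1.84 and 1.29 RPKM in PLA1, against 2.63 and 2.94 RPKM in Ctrl1, and Scn2b had 1.62 and 1.35 RPKM in PLA1, against 2.63 and 2.50 RPKM in Ctrl1. Neither passed, with log2 changes of -0.57 (adjusted p = 0.0517) and -0.52 (adjusted p = 0.0528), although their groups did not overlap. Scn3a, the most abundant sodium pore of the set, was at 5.04 and 4.15 RPKM in PLA1 and 5.59 and 6.54 RPKM in Ctrl1 (-0.34, adjusted p = 0.126).

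The 3 that rose came from different families. Kcnk5 had 7.51 and 7.29 RPKM in PLA1, against 3.73 and 3.71 RPKM in Ctrl1, with means of 7.40 ± 0.159 RPKM in PLA1 and 3.72 ± 0.0149 RPKM in Ctrl1 (SD, n = 2 each), so that the PLA1 mean was 1.99 times the Ctrl1 mean (log2 change 0.83, SE 0.13, adjusted p = 0.00383), and passed in all 11 alternatives. Cacng5, which guides AMPA receptors, had 3.92 and 4.75 RPKM in PLA1, against 2.49 and 2.28 RPKM in Ctrl1 (0.65, adjusted p = 0.0205), a call lost without the filter, Ctrl1 library 1, Ctrl1 library 2 or PLA1 library 2. Kcnd3 had 2.30 and 2.66 RPKM in PLA1, against 1.46 and 1.21 RPKM in Ctrl1 (0.58, adjusted p = 0.0435), and its call was lost in 8 of 11 alternatives, among them both scalings and each library left out. The leak channel Kcnk10, at 13.3 and 12.6 RPKM in PLA1 and 11.1 and 11.7 RPKM in Ctrl1, did not pass (0.17, adjusted p = 0.234).

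**Figure D4:**
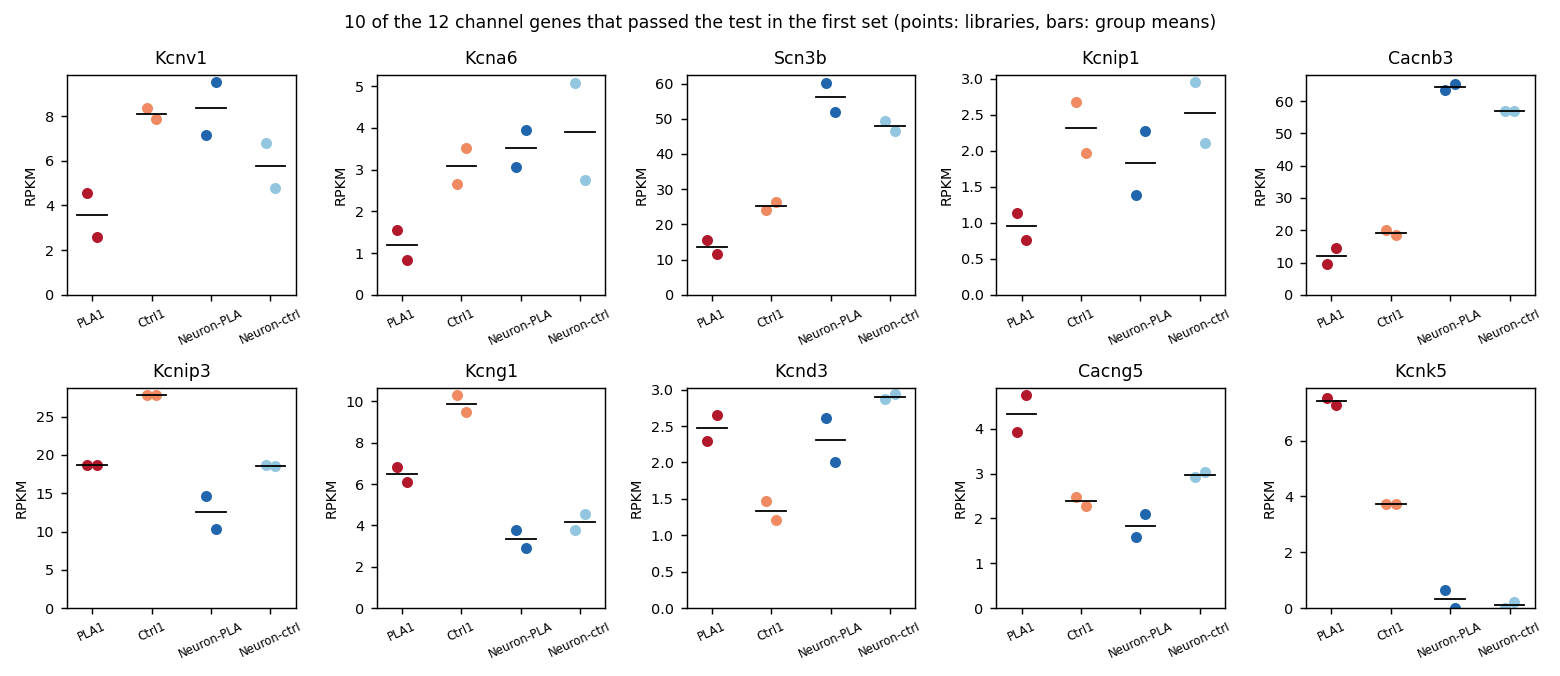
RPKM of 10 of the 12 channel genes that passed in the first set, in the 8 overexpression-set libraries, with points for libraries and bars for group means (axes start at 0). PLA1 lies apart from Ctrl1 in all 10 panels, and for Kcnv1, Scn3b and Cacnb3 the Neuron-PLA mean lies above the Neuron-ctrl mean.

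Cell type markers moved in the same set. Of 17 pan-neuronal markers 11 fell, among them Mapt (-1.53) and Tubb3 (-1.27), and their summed level was 608 to 609 RPKM in PLA1 and 1153 to 1164 RPKM in Ctrl1, with none at 0. Of 18 radial glia markers 11 rose and 1 fell, with sums of 617 to 635 RPKM in PLA1 and 479 to 486 RPKM in Ctrl1. Of 11 microglia markers tested 10 fell, with sums of 199 to 213 RPKM in PLA1 and 451 to 487 RPKM in Ctrl1. Astrocyte markers (1 of 4 tested rose, 1 fell) summed to 116 to 123 RPKM in PLA1 and 250 to 255 RPKM in Ctrl1. Interneuron markers (3 of 5 tested fell) summed to 17.1 to 21.0 RPKM in PLA1 and 38.4 to 39.0 RPKM in Ctrl1. The part of these cell mixtures in the channel gene changes was not tested. Of 6 sodium pump subunits 1 rose and 1 fell. Of 15 channel partners 4 fell, namely Fgf14 (-0.95), which binds sodium channels, Lrrc55 (-1.01), a subunit of the Kcnma1 channel, Cntn1 (-0.82) and Stac2 (-0.79), and Pcbp4 rose (0.26). Of 8 repressors of neuronal genes, Rest rose (0.73, adjusted p = 0.0121) and the other 7 did not pass. Of 9 other excitability genes, Orai2 (-0.56) and Clcn4 (-0.50) fell and Itpr1 (0.60) rose.

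In the neuron set no channel gene passed. Neuron-PLA was compared with Neuron-ctrl over 11179 genes, of which 0.376% rose and 0.501% fell (0.877% in all), and 68 channel genes were tested. At an unadjusted p under 0.05 there were 15 channel genes, against 17.7% of all genes tested. Limma-voom on recovered reads called 3 channel genes as rising and 0 as falling, against 1.72% and 1.4% of all genes. The ether-a-go-go pore Kcnh5 had the smallest p, with 7.13 and 7.09 RPKM in Neuron-PLA, against 4.14 and 3.05 RPKM in Neuron-ctrl (log2 change 0.83, SE 0.17, unadjusted p = 0.00155, limma adjusted p = 0.080; 0.038 with limma-voom). Cacna2d1 had 9.70 and 11.0 RPKM in Neuron-PLA, against 7.003 and 6.64 RPKM in Neuron-ctrl (0.54, adjusted p = 0.117; 0.0151 with limma-voom). Cacng3 had 7.61 and 5.46 RPKM in Neuron-PLA, against 9.94 and 13.7 RPKM in Neuron-ctrl (-0.76, adjusted p = 0.12). In all 3 the groups did not overlap, and the SD of Neuron-ctrl was 0.773 RPKM for Kcnh5 and 2.64 RPKM for Cacng3.

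Both Neuron-PLA libraries lay above both Neuron-ctrl libraries in 25 of 68 channel genes, against 24.7% of all genes, and below both in 8, against 25.3%. Estimates were positive for all 6 calcium channel pores, 4 sodium channel pores, 4 ether-a-go-go genes and 4 Kv7 genes tested, with no gene passing, and negative for 5 of 7 potassium channel auxiliary subunits, among them Kcnip3 at 14.7 and 10.3 RPKM in Neuron-PLA and 18.6 and 18.6 RPKM in Neuron-ctrl. Kcnj8, one of 12 endothelial and pericyte markers, was at 0.972 and 0.810 RPKM in Neuron-PLA and 1.95 and 1.61 RPKM in Neuron-ctrl and did not pass (-0.55, adjusted p = 0.269). Summed over that list the level was 5.66 to 7.27 RPKM in Neuron-PLA and 31.2 to 33.2 RPKM in Neuron-ctrl, and 2 of its 3 tested members fell. Pan-neuronal markers summed to 2717 to 2812 RPKM in Neuron-PLA and 2791 to 2870 RPKM in Neuron-ctrl, with 0 of 17 passing. Of 8 interneuron markers tested, however, 6 fell, with sums of 67.95 to 71.25 RPKM in Neuron-PLA and 129.3 to 130.5 RPKM in Neuron-ctrl. Radial glia markers summed to 253 to 282 RPKM in Neuron-PLA and 422 to 423 RPKM in Neuron-ctrl. Microglia markers, of which 2 of 11 tested fell, summed to 84.5 to 96.1 RPKM in Neuron-PLA and 152 to 153 RPKM in Neuron-ctrl. Astrocyte markers, of which 1 of 5 tested fell, summed to 127 to 150.5 RPKM in Neuron-PLA and 228.8 to 244.4 RPKM in Neuron-ctrl. The part of these mixtures was not tested. None of 19 channel partners, 8 repressors, 6 sodium pump subunits or 11 other excitability genes passed.

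The difference between the 2 sets was tested as the interaction of set and overexpression, the PLA1 minus Ctrl1 change less the Neuron-PLA minus Neuron-ctrl change. The fit covered 11705 genes, of which 6.19% were positive and 5.48% negative (11.7% in all) at an adjusted p under 0.05. Of 61 channel genes tested 9 passed, 8 negative and 1 positive. Without the filter on low values 135 named genes were tested, with 0 positive and 2 negative, against 1.67% and 1.67% of all genes. Leaving out 1 library gave 2 to 7 passing genes, with 2 without either Ctrl1 library, 4 without either Neuron-ctrl library, and 5 without PLA1 library 2 or without either Neuron-PLA library.

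Kcnv1 differed by -1.49 (adjusted p = 0.0158), with 7.17 and 9.51 RPKM in Neuron-PLA, against 6.78 and 4.78 RPKM in Neuron-ctrl. It lost its call without the filter, either Ctrl1 library, PLA1 library 2 or Neuron-ctrl library 2. Scn3b differed by -1.09 (adjusted p = 0.00602), with 60.1 and 52.0 RPKM in Neuron-PLA, against 49.5 and 46.6 RPKM in Neuron-ctrl. It passed with any 1 library left out, and lost its call without the filter. Cacna1e (-0.99), Cacng2 (-0.97), Scn2b (-0.96) and Cacnb3 (-0.83) also had a negative difference that passed, each lost in 7 to 9 of 15 alternatives. Cacna1e, with 0.697 and 0.561 RPKM in PLA1, against 1.29 and 1.23 RPKM in Ctrl1, lay under the filter in the first set alone. Cacng5 was the positive one, at 1.15 (adjusted p = 0.0133), with 1.58 and 2.10 RPKM in Neuron-PLA, against 2.92 and 3.04 RPKM in Neuron-ctrl. It lost its call without the filter, either Ctrl1 library or PLA1 library 2. Kcnip3 had nearly equal estimates, -0.55 in the first set and -0.56 in the neuron set (difference 0.01, adjusted p = 0.990). Pan-neuronal markers moved with the negative group: 9 of 17 had a negative interaction that passed, and 9 of 18 radial glia markers a positive one. Their part in the channel gene differences was not tested.

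**Figure D5:**
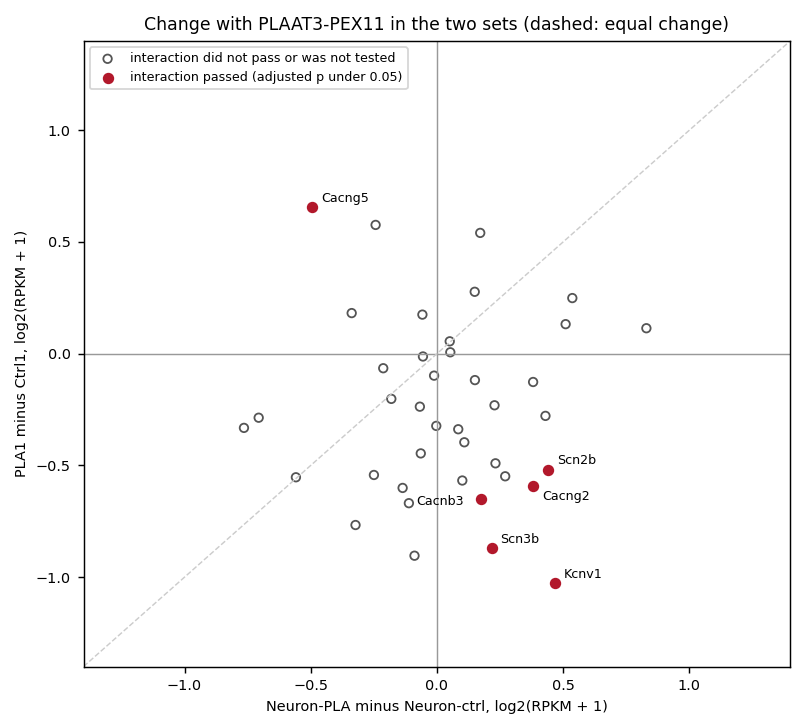
Log2 change of 40 of the channel genes tested in both sets, Neuron-PLA minus Neuron-ctrl across and PLA1 minus Ctrl1 upward, with filled points where the interaction passed and a dashed line of equal change. The lower right, down in the first set and up in the neuron set, holds 14 genes, 5 of them filled, and Cacng5 is the filled point at the upper left.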

How the data were processed

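The 4 tables deposited by the authors held RPKM per gene and library, per the values themselves, since no header names the unit. The submitters' processing notes name STAR 2.7.9a, HTSeq 0.6.0 and the build mm10, and the labels' protocols give Trizol extraction. Whether counting used strand is not given in the sources used here. RPKM times the merged exon length in GENCODE M21 and a read total gave whole reads, within 0.01, for 97.5% to 97.8% of nonzero values, with lengths for 32009 genes (97.2%). For 96 of 107 channel genes reads were recovered in all libraries. A library that lacks reads of a gene was not imputed.

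The test was limma 3.58.1 under R 4.3.3, its variance trended on the mean, applied to log2(RPKM + 1) of genes averaging 1 RPKM or more and adjusted over all genes at 0.05. Log2 changes are on that scale, which understates low genes. The planned count test gave way to this one because the unit was RPKM. Channel genes and gene lists were chosen with earlier results of these data known. Named are up to 30 passing genes per comparison by adjusted p, the 2 of highest mean level per subfamily, those nearest the threshold, the targeted genes, up to 4 passing genes per list and, where none passed, the 3 of smallest p. Some genes that this rule names are not reported here. Other genes are named as examples chosen after their values were seen. Alternatives were pseudocount 0.1, no filter, 2 scalings, limma-voom on recovered reads, each library left out, the replicate number as a block, stage order for day and, added after seeing the data, removal of a length and GC trend.

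On simulated data with 200 changed genes the tests recovered 9%, 11%, 8%, 7% and 2% of 1.5-fold and 95%, 96%, 95%, 95% and 79% of 3-fold changes in the knockdown (12072 genes), first set (11282), neuron set (10847), stage slope (12556, fold between first and last stage) and interaction (11374). Called genes that had not been changed made up 17.5%, 16.4%, 13.4%, 7.27% and 11.0%, and 0.99%, 0.962%, 0%, 0.99% and 1.23% among genes with a mean of at least 50 reads.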

Additional observations from a re-analysis of the deposited data

Results flagged for a closer look

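For 9 channel genes the change with PLAAT3-PEX11 differed between the first set and the neuron set by the interaction test at an adjusted p under 0.05. The difference, on the log2(RPKM + 1) scale, was -1.49 for Kcnv1, -1.09 for Scn3b, -0.99 for Cacna1e, -0.97 for Cacng2, -0.96 for Scn2b, -0.83 for Cacnb3 and 1.15 for Cacng5. The adjusted p, from limma, ran in these from 0.00602 for Scn3b to 0.0497 for Cacng2. In both libraries of PLA1 the named genes with a negative difference lay below both Ctrl1 libraries, and Cacng5 lay above both.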

How the results depend on the processing

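The median change of channel genes in the knockdown, -0.01, was -0.13 without Scramble 1 and 0.11 without Scramble 2. In the first set 19 channel genes passed with limma-voom on recovered reads (4 rose, 15 fell) and 3 without the filter on low values (1 rose, 2 fell), against 12 (3 rose, 9 fell). Over all 11331 genes tested with limma-voom, 2231 rose and 1591 fell. For the interaction, 2 passed without the filter (0 positive, 2 negative), and 12 with limma-voom (2 positive, 10 negative), against 9 (1 positive, 8 negative). Over all 11405 genes tested for it with limma-voom, 745 were positive and 721 negative. In the neuron set limma-voom called 3, all rising, against 0. Over the stages 1 fell with median-ratio scaling, against 2. Leaving out 1 library gave 6 to 13 in the first set (1 to 2 rising, 5 to 11 falling), 2 to 7 for the interaction (0 to 1 positive, 2 to 6 negative), 36 to 60 over the stages (34 to 58 rising, 1 to 2 falling) and 0 in the knockdown and the neuron set. The causes were not tested. Same-numbered libraries were not paired by the labels, and their deviations correlated at 0.010, 0.099 and 0.047 in the knockdown, first set and neuron set. With the replicate number as a block 0, 16 (3 rising, 13 falling) and 0 channel genes passed, and 8 for the interaction (1 positive, 7 negative).

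Single genes were followed where they passed over the stages (60) or for the interaction (9), and for the 16 of smallest p in the first set, and none of these changed direction in the alternatives that tested it. Over gene and setting combinations, the stage slope kept the call in 713 and lost it in 47, in 21 genes. In the first set, where the 16 genes followed included some that did not pass, the result, passing or not, was unchanged in 127. The call was lost there in 32 and gained in 15. The interaction kept the call in 86 and lost it in 49. Over all genes, rises and falls in the first set were 1900 and 1538, but 614 and 563 without the filter, 867 and 708 without Ctrl1 library 1, 1046 and 1002 without PLA1 library 2, and 1558 and 1796 with median-ratio scaling. In the neuron set they were 42 and 56, but 0 and 0 without the filter, 187 and 152 with limma-voom, 23 and 31 with the block, 26 and 34 with the length and GC trend removed, and 4 to 42 and 1 to 121 with 1 library left out. For the stages they were 2528 and 3300, but 1270 and 1267 without E18 and 2996 and 2713 with median-ratio scaling. For the interaction they were 725 and 642, but 381 and 380 without the filter and 315 to 674 and 321 to 544 with 1 library left out. With 2 libraries a group and most channel genes under 10 RPKM, changes of 1.5-fold were seldom recovered in the simulation, so a gene that did not pass is not shown to be unchanged.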

Other observations

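Cacna1f, a calcium pore known from the retina, reached 1 RPKM in 1 library only. It stood at 6.11 RPKM at E13, from 2960 reads, and at 0.00795 to 0.0446 RPKM, from 3 to 20 reads, at the other stages. Its slope did not pass.

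Kcne2, an auxiliary subunit found in choroid plexus, was at 1.03 RPKM at E11 and 0.0818 to 0.473 RPKM at the later stages. Summed over 6 choroid plexus markers the level was 70.3 RPKM at E11, 1.63 to 21.8 RPKM at E12 to E16 and 109 RPKM at E18. In neural stem cells Kcne2 was at 1.41 and 0.788 RPKM in Pex7sh and at 0.362 and 1.60 RPKM in Scramble, and those markers summed to 68.6 to 164 RPKM in Pex7sh and 30.5 to 194 RPKM in Scramble.

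Levels were also set across the separately normalised tables. Of 45 channel genes at 5 RPKM or more at E18 and at 1 RPKM or more in both Scramble libraries, 9 (20%) were under 1 RPKM in all 8 overexpression-set libraries, against 165 (2.26%) of 7307 genes. Among them were Cacng7, Hcn2, Kcnmb4os2, Kcnh4, Kcnh3, Cacna2d2, Kcnt1 and Kcnj4. Cacng7, at 124 RPKM at E18, did not exceed 0.571 RPKM there, and Hcn2, at 13.1 RPKM at E18, did not exceed 0.136 RPKM, while Kcnh3 and Kcnh4 lay just under the threshold, at up to 0.989 and 0.928 RPKM. The median GC content of their exons was 60.0%, against 55.2% in the other 36 channel genes, and over the other genes it was 55.8% in those under 1 RPKM and 51.5% in the rest. The part of GC content in these levels was not tested.

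The antisense transcript Kcnmb4os1 was at 8.62 to 33.5 RPKM in the stages and did not exceed 0.95 RPKM in the other 12 libraries, while Kcnmb4, whose exons it overlaps, was at 2.19 to 2.56 RPKM in neural stem cells.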
